A study of Rattus norvegicus with 4 samples.

Results

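In phenylephrine-treated neonatal rat ventricular myocytes, RNA of cells given siRNA to Chaer, a long noncoding RNA, was compared with RNA of cells given a negative control siRNA, 1 library each. The comparison covers the features (gene models of the annotation) whose mean level over these 2 libraries was at least 1 RPKM, a unit that divides the reads of a feature by its length and by the read total of the library. They number 12144 of the 26406 features listed, or 46.0%. The rule used only the mean level and not the ratio of the libraries. The feature nearest above the level minimum had a mean of 1.001 RPKM and the nearest below 0.9998 RPKM. In 8664 of the 14262 features left out, both libraries had 0 reads.

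The cells were ventricular myocytes from the hearts of Sprague Dawley rats at 2 days of age, grown on 100 mm dishes in medium with 1% ITS supplement. Both groups compared here were given phenylephrine at 50 µM, after 6 h of transfection with siChaer (Chaer-specific siRNA) in one and siNeg (negative control siRNA) in the other, and were collected 48 h later. The other 2 groups of the study, siChaer and siNeg without phenylephrine, are used only beside this comparison. Each group was 1 library. How many hearts went into a dish, and whether the dishes came from separate cultures, are not given in the labels, and such cultures can hold other heart cells besides myocytes.

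Phenylephrine activates α1-adrenergic receptors, and cardiac myocytes kept in it enlarge and return to a fetal-like pattern of transcription. Chaer is a heart-enriched long noncoding RNA that binds the catalytic subunit of Polycomb repressive complex 2, the enzyme complex that places a repressive methyl mark on histone H3. An siRNA guides the cutting of the transcript it matches, so a comparison of the siRNAs under phenylephrine addresses which transcripts differ when stimulated myocytes have received the Chaer siRNA. 0 features carried the name Chaer, so whether its level was lower in these libraries was not checked here.

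H19 was the only feature listed under a gene symbol, and the other 26405 had an Ensembl identifier alone. The reference table used here pairs 0 of those identifiers with a symbol. For that reason 4 features are given by identifier, the 2 with the highest and the 2 with the lowest ratio of (RPKM + 1), and the remaining ones are described by counts and levels. The 36 lists of pathway genes and cell type markers, with 770 different symbols, could be matched for 1 symbol, H19. The cell type on the labels was therefore not checked against its markers, and neither was the share of other cell types.

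H19 is an imprinted noncoding RNA made in large amounts by the fetal heart and switched down after birth. RefSeq places the hairpin of a microRNA, miR-675, inside the H19 gene, and the mature microRNAs cut from it are shown because they are the small RNA product of the transcript compared here. Their sequences come from RefSeq (build GRCr8, minus strand) and are written from the 5′ end, with the seed, bases 2 to 8, in capitals. The 5p arm lies at chr1:207161800-207161821 and the 3p arm at chr1:207161766-207161786. The seeds of the arms differ. The microRNAs were not measured here.
rno-miR-675-5p: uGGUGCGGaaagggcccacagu
rno-miR-675-3p: uGUAUGCCcuaaccgcucagu

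With phenylephrine, H19 had 1651 reads in the control siRNA library and 437 in the Chaer siRNA library. These are levels of 20.1 RPKM (95% counting interval 19.1 to 21.1) and 4.60 RPKM (4.18 to 5.06). The library with Chaer siRNA was the lower one by a factor of 4.37 (3.93 to 4.87), and the intervals of the levels do not overlap. All intervals in this text are exact Poisson intervals for a level and exact binomial ones for a ratio, unless another kind is named. They cover counting error only, since no group had a replicate and PCR copies of a molecule could not be told from separate molecules. On the scale used to rank features, log2 of (RPKM + 1) with Chaer siRNA divided by (RPKM + 1) with control siRNA, H19 stood at -1.91, with only 3 of the 12144 features lower. That scale understates the ratio of weakly expressed features, and by the ratio of RPKM itself 11 features were lower than H19. Without phenylephrine the levels of H19 were 30.6 RPKM with control siRNA and 5.52 RPKM with Chaer siRNA, so in both conditions the Chaer siRNA library was the lower.

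The highest ratio, by (RPKM + 1) and by RPKM alike, belonged to ENSRNOG00000007089, a gene model of 1818 bp. It had 494 reads and 7.69 RPKM (7.03 to 8.40) with control siRNA against 6035 reads and 81.3 RPKM (79.3 to 83.4) with Chaer siRNA. The ratio of the levels was 10.6 (9.64 to 11.6), and the log2 ratio of (RPKM + 1) was 3.24. Its level without phenylephrine was close to this in each siRNA, at 9.38 RPKM with control siRNA and 100.8 RPKM with Chaer siRNA. The ratio there was 10.7 (9.90 to 11.7). The log2 difference between both ratios was -0.02, with a counting interval (normal approximation on log counts, as for the other differences) of -0.20 to 0.15, so no difference was detectable beyond counting error.

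ENSRNOG00000019490, of 3620 bp, came second by the ratio of (RPKM + 1), while 8 features had a larger ratio of RPKM itself. Its level with phenylephrine was 12.5 RPKM (11.9 to 13.1) for control siRNA and 53.98 RPKM (52.8 to 55.2) for Chaer siRNA. This made a ratio of 4.32 (4.09 to 4.56), and the other pair of libraries, at 19.1 RPKM and 63.3 RPKM, gave 3.31 (3.17 to 3.46). The ratio was thus larger in the phenylephrine libraries, by 0.38 on the log2 scale (0.28 to 0.48).

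ENSRNOG00000008943, of 1284 bp, stood lowest by the ratio of (RPKM + 1). By the ratio of RPKM itself 4 features were lower, and with 0.1 in place of 1 added to RPKM 3 were, ENSRNOG00000014231 among them under both measures. With phenylephrine it had 2530 reads and 55.8 RPKM (53.6 to 58.0) for control siRNA, and 506 reads and 9.65 RPKM (8.83 to 10.5) for Chaer siRNA, which is lower by a factor of 5.78 (5.25 to 6.37). Without phenylephrine it had 13.8 RPKM (12.7 to 14.9) for control siRNA and 11.8 RPKM (10.9 to 12.8) for Chaer siRNA. The control siRNA library with phenylephrine was the one that stood apart, and the remaining 3 libraries lay between 9.65 and 13.8 RPKM. The log2 RPKM ratio with phenylephrine minus that without was -2.31 (interval -2.52 to -2.10).

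ENSRNOG00000014231, of 1015 bp, followed by the ratio of (RPKM + 1), with 288 reads for control siRNA and 45 reads for Chaer siRNA. Its levels were 8.03 RPKM (7.13 to 9.02) and 1.09 RPKM (0.792 to 1.45), lower with Chaer siRNA by a factor of 7.40 (5.39 to 10.4). In the libraries without phenylephrine it had 0 reads with control siRNA, which allows a level of up to 0.0799 RPKM when 3 reads are taken as the limit, and 5 reads, or 0.122 RPKM (0.0396 to 0.285), with Chaer siRNA. Reads of this feature were thus nearly all in the phenylephrine libraries, and most of them in the one with control siRNA.

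**Figure D1:**
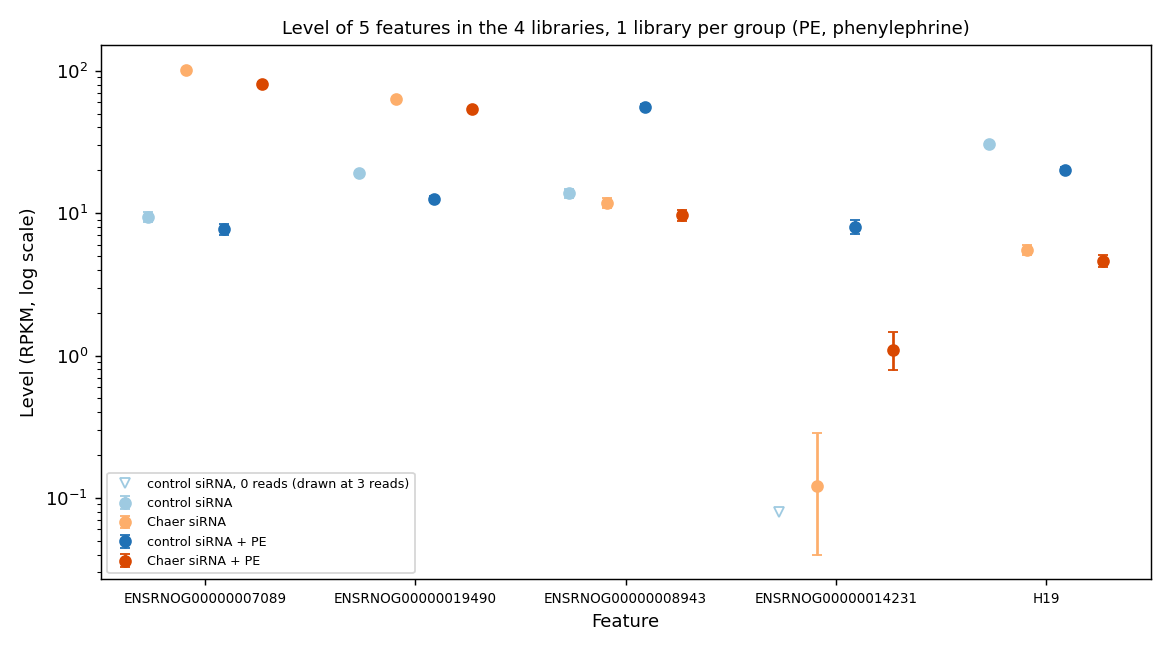
Level in RPKM (log axis) of the 5 named features in each of the 4 libraries, with bars for the 95% Poisson counting interval and an open triangle at 3 reads where a library had 0 reads. ENSRNOG00000007089, ENSRNOG00000019490 and H19 separate by siRNA in both conditions, while ENSRNOG00000008943 is high in 1 library, control siRNA with phenylephrine, at 55.8 RPKM.

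Taking all 12144 features, most had similar levels under both siRNAs. The log2 ratio of (RPKM + 1) had a median of -0.03 and an SD across features of 0.36, and from percentile 5 to percentile 95 it ran from -0.55 to 0.56. Ratios above 1 were found for 5563 features and ratios below 1 for 6581, an order that turned with TMM scaling (6317 and 5827), median-ratio scaling (6522 and 5622) and the TPM scale (6220 and 5924). Within 1.2-fold of each other were 7685 features, or 63.3%. Each of the 12144 features had reads in both libraries.

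At least 2-fold higher with Chaer siRNA were 122 features, 1.00% of those compared, and at least 2-fold lower were 102, 0.840%. With 1 library per group no test across features was made, so these counts describe 2 libraries and carry no error from separate cultures. At 1.5-fold the counts were 548 higher (4.51%) and 518 lower (4.27%), and at 3-fold 19 higher (0.156%) and 11 lower (0.0906%). Counted by another rule, that the whole counting interval of the RPKM ratio lie past 2-fold, 113 features were higher (0.931%) and 120 lower (0.988%). The larger direction thus turned with the rule. It turned too when 0.1 in place of 1 was added to RPKM, with 187 higher and 229 lower. Higher features were 54.5% of those past 2-fold on the deposited scale, 63.2% (146 against 85) with TMM scaling and 65.4% (151 against 80) with median-ratio scaling, so the split depended on the scaling as well.

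The smallest ratio counted as higher was a log2 value of 1.001 and the largest not counted 0.998. The corresponding values for lower features were -1.001 and -0.996. Among the 122 higher features the RPKM ratio ran from 2.03 to 10.6 with a median of 2.64. Among the 102 lower features the factor ran from 2.06 to 17.3 with a median of 2.81. At least 4-fold by RPKM ratio were 13 of the 122 and 17 of the 102.

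**Figure D2:**
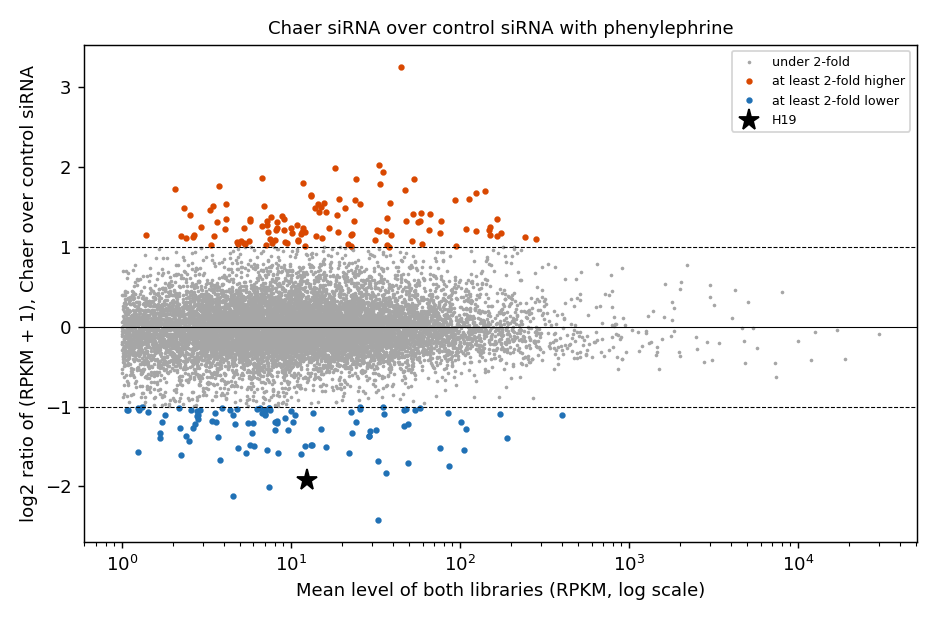
Each point is 1 of 12144 features, with its mean level in both phenylephrine libraries (RPKM, log axis) and its log2 ratio of (RPKM + 1), Chaer siRNA over control siRNA; dashed lines mark 2-fold. Orange points are the 122 higher and blue points the 102 lower features, and the star is H19 at -1.91.

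Higher features tended to be more abundant than lower ones. The median of the mean level was 14.2 RPKM for the 122 higher features and 7.42 RPKM for the 102 lower ones, beside 10.9 RPKM for all features. Of 3382 features with a mean of 1 to 5 RPKM, 20 were higher (0.591%) and 36 lower (1.06%). The order was the other one at greater levels. From 5 to 20 RPKM, 52 of 4842 features were higher (1.07%) and 35 lower (0.723%). From 20 to 100 RPKM the counts were 37 and 25 of 3197 (1.16% and 0.782%), and at 100 RPKM and over 13 and 6 of 723 (1.80% and 0.830%). In each of these 4 classes the larger direction was the same with pseudocounts of 0.1 and 5, on the TPM scale, and with the other 3 scalings run. With a pseudocount of 5, however, the class of 1 to 5 RPKM held 0 higher features and 1 lower, too few for a direction. The classes hold few features past 2-fold, and the difference between them was not tested.

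**Figure D3:**
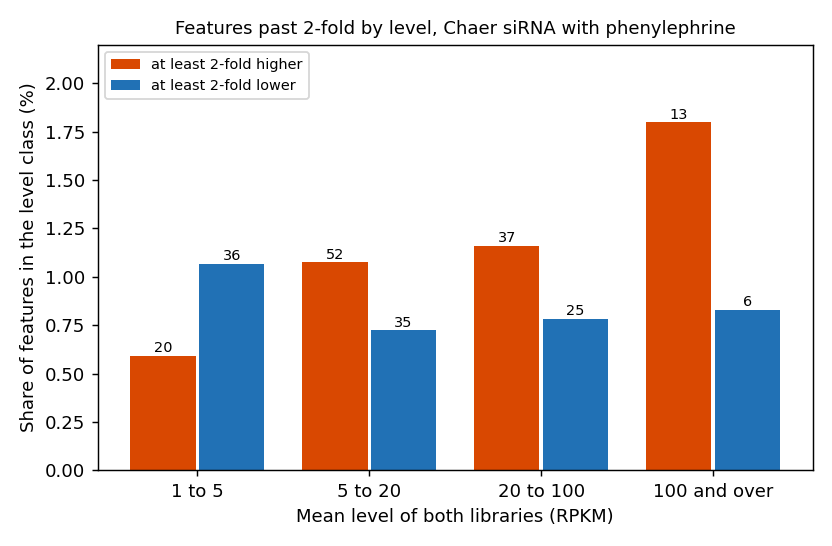
Share of features (%) at least 2-fold higher (orange) or lower (blue) with Chaer siRNA in 4 classes of mean level (RPKM), with the number of features above each bar. Lower features outnumber higher ones, 36 against 20, only in the class of 1 to 5 RPKM.

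Counting error was larger at low levels, and its part in the direction of the features past 2-fold was not tested. The counting interval of a ratio reached a median of 1.24 times the ratio itself in the class of 1 to 5 RPKM, and 1.03 times at 100 RPKM and over. Over both libraries the higher features had a median of 2278 reads and the lower ones 900.5, and under 100 reads had 3 of the 122 and 9 of the 102. For 1 of the 224 the counting interval of the RPKM ratio held 1. The whole interval lay past 2-fold for 106 of the 122 and for 83 of the 102.

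Lower features also had shorter gene models. Their median length was 1574.5 bp, against 1903.5 bp for the higher features and 1956.5 bp for all. In gene models under 1000 bp, 30 of 2152 features were lower (1.39%) and 23 higher (1.07%), and in those of 4000 bp or longer 8 of 1646 were lower (0.486%) and 11 higher (0.668%). Short models collect fewer reads at the same RPKM, and the part of read depth in this was not tested.

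In terms of level, the 122 higher features summed to 2449 RPKM with control siRNA and 6238 RPKM with Chaer siRNA, which is 0.416% and 1.09% of the summed RPKM of all features compared. The 102 lower features summed to 3598.5 RPKM and 1434 RPKM, or 0.611% and 0.251%. At 100 RPKM or more were 4 of the 122 with control siRNA and 17 with Chaer siRNA. Under 1 RPKM were 15 of the 102 lower features with Chaer siRNA and 4 of the 122 higher features with control siRNA. These passed the level minimum only through the library where they were high. The features past 2-fold were thus a small part of the summed RPKM in either library, as they were of the features compared (1.00% and 0.840%).

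Of the 20 features with the most reads over both libraries, 0 passed 2-fold, a number too small to set apart from the 1.00% and 0.840% of all features, 6 had a ratio above 1 and 14 below 1 on the deposited scale, with log2 ratios from -0.63 to 0.53 and a median of -0.11. These 20 held 21.7% of the reads in listed features with control siRNA and 20.5% with Chaer siRNA. In total the libraries had 33944988 and 39155363 reads in listed features, respectively.

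Chaer siRNA over control siRNA without phenylephrine comes from 2 other libraries, so it is the same contrast measured on separate RNA. Of the 12144 features, 124 were at least 2-fold higher there (1.02%) and 128 at least 2-fold lower (1.05%). Of the 122 features higher with phenylephrine, 78 (63.9%) passed 2-fold in the same direction without it, which is 62.9% of the 124. Of the 102 lower ones, 60 (58.8%) did, 46.9% of the 128. In 0 cases was a feature 2-fold higher in one condition and 2-fold lower in the other.

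Features past 2-fold with phenylephrine mostly lay on the same side without it, also where they did not reach 2-fold. For 121 of the 122 higher features (99.2%) and 97 of the 102 lower ones (95.1%) the ratio without phenylephrine had the same direction. The same counts were found when both ratios were centred on their medians, an alternative added after seeing the data. Among features from 1.5-fold to 2-fold with phenylephrine, 782 of 842 (92.9%) were on the same side, and among those within 1.2-fold 4376 of 7685 (56.9%). Shares in between were found for intermediate ratios. In a class with a median log2 ratio of 0.34 with phenylephrine, 1049 of 1380 (76.0%) were on the same side. In a class with a median of -0.34, 1390 of 1800 (77.2%) were. In the class with a median of -0.12, 2075 of 4032 (51.5%) were on the same side. In that with a median of 0.10, 2135 of 3412 (62.6%) were. All 12144 features were counted in such classes and not as a single share, and the 56.9% does not stand for that share. A ratio of at least 1.5-fold in the same direction without phenylephrine was found for 109 of the 122 and 88 of the 102. Over all 12144 features the log2 ratio without phenylephrine was -0.63 at percentile 5 and 0.58 at percentile 95. Both values are close to 1.5-fold, and by definition about 5% of all features lay beyond each. The exact share past 1.5-fold was not counted.

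The median sizes of the ratios were close in both conditions. The 122 higher features had a median log2 ratio of 1.24 with phenylephrine and 1.11 without, and the 102 lower ones -1.20 and -1.12. Single features spread more widely without phenylephrine, with an SD across features of 0.45 for the higher and 0.63 for the lower set. With phenylephrine, where the 2-fold rule cut the ratios off, these were 0.30 and 0.27. The features were chosen on the ratios with phenylephrine, a choice that favours larger values there. Of the higher features, 94 of 122 had the larger ratio with phenylephrine, and of the lower ones 65 of 102.

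In the libraries without phenylephrine, which the choice of features did not use, the 122 higher features had a median level of 9.27 RPKM in siNeg and 18.6 RPKM in siChaer. The 102 lower features had 16.1 RPKM and 6.63 RPKM there. In the phenylephrine libraries, where the choice itself fixed the direction, the medians were 7.23 RPKM in siNeg PE and 20.9 RPKM in siChaer PE for the higher features, and 10.9 RPKM and 4.25 RPKM for the lower ones. The 44 higher features that did not reach 2-fold without phenylephrine were less abundant than the 78 that did. The median levels were 12.95 RPKM and 31.5 RPKM in siChaer PE, and 4.73 RPKM and 11.3 RPKM in siNeg PE. By construction the ratio of (RPKM + 1) is understated in weakly expressed features, and the part of this in the order was not tested. The median log2 ratio of the 44 without phenylephrine was 0.70. The 42 lower features that did not reach 2-fold had a median of -0.71 there. Their levels showed no such order beside the 60 that did. The medians were 11.7 RPKM against 10.1 RPKM in siNeg PE and 4.57 RPKM against 3.87 RPKM in siChaer PE. In siChaer they were 7.88 RPKM against 6.07 RPKM, but in siNeg 13.8 RPKM against 18.5 RPKM.

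Across the 12144 features, the log2 ratios with and without phenylephrine had a Pearson correlation of 0.64 and a Spearman correlation of 0.54. These are correlations across genes of 2 pairs of libraries, with genes not being independent replicates, and the pairs share the siRNAs and, for each gene, its model and level. The Pearson value was 0.58 at 1 to 5 RPKM, 0.63 at 5 to 20 RPKM, 0.72 at 20 to 100 RPKM and 0.74 at 100 RPKM and over. It was thus greater in the classes with more reads per feature. Whether the libraries with one siRNA also shared a culture is not given in the labels, and an effect of the siRNA and a difference between cultures cannot be told apart in either pair.

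**Figure D4:**
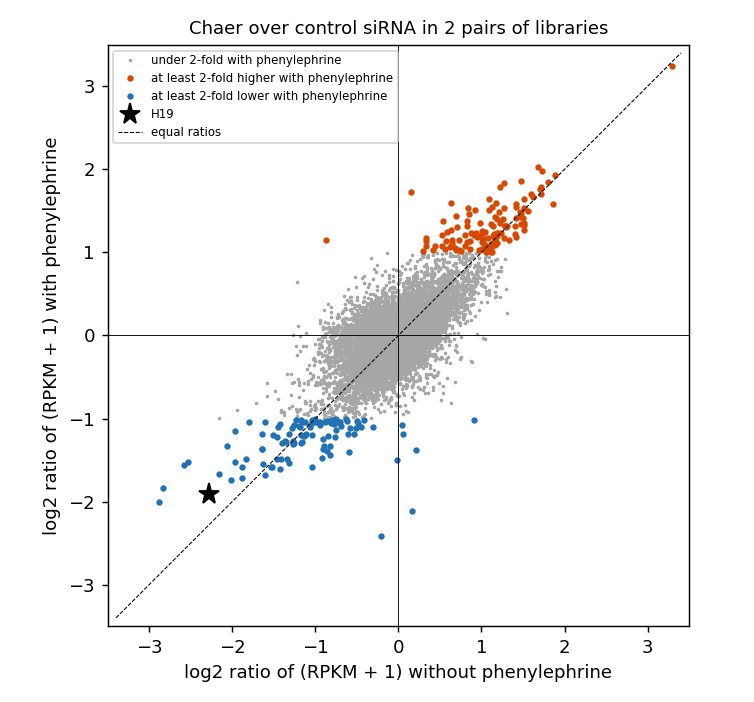
Log2 ratio of (RPKM + 1), Chaer siRNA over control siRNA, for 12144 features, without phenylephrine on the horizontal and with phenylephrine on the vertical axis; the dashed line marks equal ratios. The 122 orange and 102 blue points passed 2-fold with phenylephrine, and all but 1 of the orange and 5 of the blue ones lie on the same side of 0 on both axes.

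A few features stood apart between the conditions. The log2 ratio with phenylephrine exceeded that without by at least 1 for 41 of the 12144 features and lay below it by at least 1 for 27 of the 12144. Among these, 2 of the 41 were at least 2-fold higher with phenylephrine and 7 of the 27 at least 2-fold lower, the latter including ENSRNOG00000008943 and ENSRNOG00000014231. Of all features past 2-fold with phenylephrine, 1 of the 122 and 6 of the 102 were within 1.2-fold without it. The exact share of all features within 1.2-fold without phenylephrine was not counted. The quartiles of their log2 ratio there, -0.21 and 0.22, were both inside 1.2-fold, so most of the 12144 features were within it. H19 was not among the features that stood apart in these ways. Its log2 RPKM ratio was less negative with phenylephrine by 0.35 (counting interval 0.14 to 0.55), and its place near the bottom of the ratios was common to both conditions. With 1 library per group there is no test of these differences against the spread between cultures.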

How the data were processed

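RNA-seq libraries of 4 groups, 1 per group, were deposited, and 2 of them form this comparison. The submitters' processing notes name TopHat2 and the build rn5. For the counting, the tool, annotation release and strand setting were not given in the sources used here, so reads of overlapping or antisense genes may not be told apart. Libraries were TruSeq stranded, per the labels' protocols. For each feature the authors deposited its read count and its RPKM, per the file headers. Dividing the deposited counts by RPKM gave 1 read total per library (35314303 and 40835172 for control and Chaer siRNA with phenylephrine) and whole gene lengths, within 6.38e-08 bp for features with over 1000 reads. Of these totals, 3.88% and 4.11% were not in listed features.

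Files were joined on the feature name. Features averaging 1 RPKM or more over both libraries were kept, and the log2 ratio of (RPKM + 1) was taken with a 2-fold size rule. No replicate exists, so no test, p-value or SD between samples is given. Intervals at 95% came from the counts (scipy 1.17.1), and TMM factors from edgeR 4.0.16. Ratios, intervals and the size rule were run on simulated Poisson counts, the error model that the intervals assume. The simulation held no spread between cultures and no PCR copies, so it checks the calculation only. The planned rule for naming genes by symbol could not be used beyond H19; its fallback, at most 2 identifiers per direction, was. The lists could not be applied and the promoter features were not computed. The features and lists were chosen with earlier results of these data known.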

Additional observations from a re-analysis of the deposited data

Results flagged for a closer look

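ENSRNOG00000014231 had a log2 ratio of (RPKM + 1), Chaer over control siRNA, of 0.17 without and -2.11 with phenylephrine, values of opposite sign with a difference of -2.28. The first rests on 0 and 5 reads, too few for a direction, since the counting interval of that ratio holds 1 (lower bound 0.839), and the second on 288 and 45 reads. The difference was not tested, since each group was 1 library.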

How the results depend on the processing

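Beside the main setting, 12 alternatives were run for the counts past 2-fold and 6 for the ratio of each of the 5 named features. The count of higher features, 122, became 187 with a pseudocount of 0.1, 53 with a pseudocount of 5, 548 with the 1.5-fold rule and 19 with the 3-fold rule. The count of lower features, 102, became 229, 31, 518 and 11 under these, and 66 with a mean RPKM of at least 5. The other 8 and 7 alternatives kept the counts within 1.5 times. By construction a higher pseudocount and a stricter fold pass fewer features. The share of higher features among those past 2-fold was 45.0% with a pseudocount of 0.1 and 65.4% with median-ratio scaling, the lowest and highest share over the alternatives run. The median log2 ratio of all features lay between -0.05 and 0.03. In 0 cases did a named feature change direction. The log2 ratio of H19 ran from -2.10 to -1.39, that of ENSRNOG00000007089 from 2.77 to 3.38, that of ENSRNOG00000019490 from 1.75 to 2.10, that of ENSRNOG00000008943 from -2.52 to -2.05 and that of ENSRNOG00000014231 from -2.78 to -1.10. No paired analysis was made, since there was a single library in each group, and for the same reason no library could be left out.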
